A study of Homo sapiens with 6 samples.

Results

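The integrated stress response was examined through ATF4 and its classical target genes in undifferentiated human embryonic stem cells (hESCs) with and without S6K1. The genes were ATF4, DDIT3, ASNS, CHAC1, TRIB3, ATF3, DDIT4, PSAT1, ATF5 and PPP1R15A, taken by gene symbol. All 10 were found among the 61155 symbols of the count table, and all 10 were among the 19521 symbols that passed the filter on low counts. The WT group held 3 libraries of H7, an established hESC line. The S6K1-/- group held 3 libraries of H7 cells in which exons 9 and 11 of RPS6KB1, the gene of S6K1, had been targeted with CRISPR/Cas9. Both groups were grown without feeder cells on Matrigel in TeSR-E8 medium, and no withdrawal of amino acids or other stress is named for either. The labels of all 6 libraries also carry the end of a protocol with dexamethasone, a glucocorticoid, and isobutylmethylxanthine, which the methods for these cells do not name, and whether it applies to them is unknown. The labels name the second genotype a knockdown, whereas the methods describe a knockout. The labels give both groups a time of week 5, although the methods call the cells undifferentiated. All S6K1-/- libraries came from 1 clone, so that the genotype and the clone cannot be told apart.

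Cells under stress phosphorylate the translation factor eIF2 through a set of kinases that sense amino acid shortage, misfolded protein in the endoplasmic reticulum, double-stranded RNA or lack of heme. Phosphorylated eIF2 slows protein synthesis in general but favours translation of ATF4, whose mRNA carries upstream open reading frames, and ATF4 then drives genes for amino acid supply, redox balance and feedback on the response. Growth signalling through mTORC1, the kinase complex that activates S6K1, also raises ATF4 output in proliferating cells. Because much of this control acts on translation, the mRNA of ATF4 does not report the amount of ATF4 protein, which was not measured here. The mRNA of its target genes is the usual readout of its activity.

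The DNA element through which ATF4 acts is the C/EBP-ATF response element, a composite site at which ATF4 binds as a heterodimer with a C/EBP protein. Its core was searched as TGATGNAA on both strands, where N is any base, and the cyclic AMP response element of the wider ATF/CREB family was searched as TGACGTCA. Within the 1000 bases upstream of a RefSeq start site on GRCh38, the first core was found for 6 of the 10 genes, namely DDIT3, ASNS, CHAC1, TRIB3, ATF3 and DDIT4, and for 15.1% of 27305 genes in all. In the shorter window of 250 bases before to 50 after the start site it was found for 3 of the 10, against 4.46% of all genes. The cyclic AMP response element was found upstream of ATF3 and PPP1R15A, and for 2.82% of all genes. The matches nearest to the start site are printed for the 7 genes that hold either motif, to show how the core and its surroundings vary among them, 30 bases each in the direction of the gene, with the match in capitals. They are descriptions of the letters in these windows and not measurements of binding.
ASNS, chr7:97872458-97872487, minus strand, match 68 bases upstream: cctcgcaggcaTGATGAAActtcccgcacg
CHAC1, chr15:40953251-40953280, plus strand, match 209 bases upstream: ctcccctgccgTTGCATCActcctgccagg
DDIT3, chr12:57520802-57520831, minus strand, match 303 bases upstream: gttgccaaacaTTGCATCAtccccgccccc
TRIB3, chr20:380947-380976, plus strand, match 337 bases upstream: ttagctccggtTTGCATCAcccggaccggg
ATF3, chr1:212565205-212565234, plus strand, match 191 bases upstream: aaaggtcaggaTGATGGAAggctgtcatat
DDIT4, chr10:72272967-72272996, plus strand, match 946 bases upstream: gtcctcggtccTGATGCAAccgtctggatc
PPP1R15A, cyclic AMP response element, chr19:48872352-48872381, plus strand, match 58 bases upstream: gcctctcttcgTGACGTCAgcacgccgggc
The core was in reverse orientation in CHAC1, DDIT3 and TRIB3, where it reads TTGCATCA along the gene. In TRIB3 the printed 30 bases occurred 3 times without a change, each 33 bases from the next, so that this gene held the most copies of the 10. ASNS held a further match 886 bases upstream. No match to either motif was found within 1000 bases upstream of ATF4, ATF5 or PSAT1, which says only that these letters are not in that window.

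**Figure D1:**
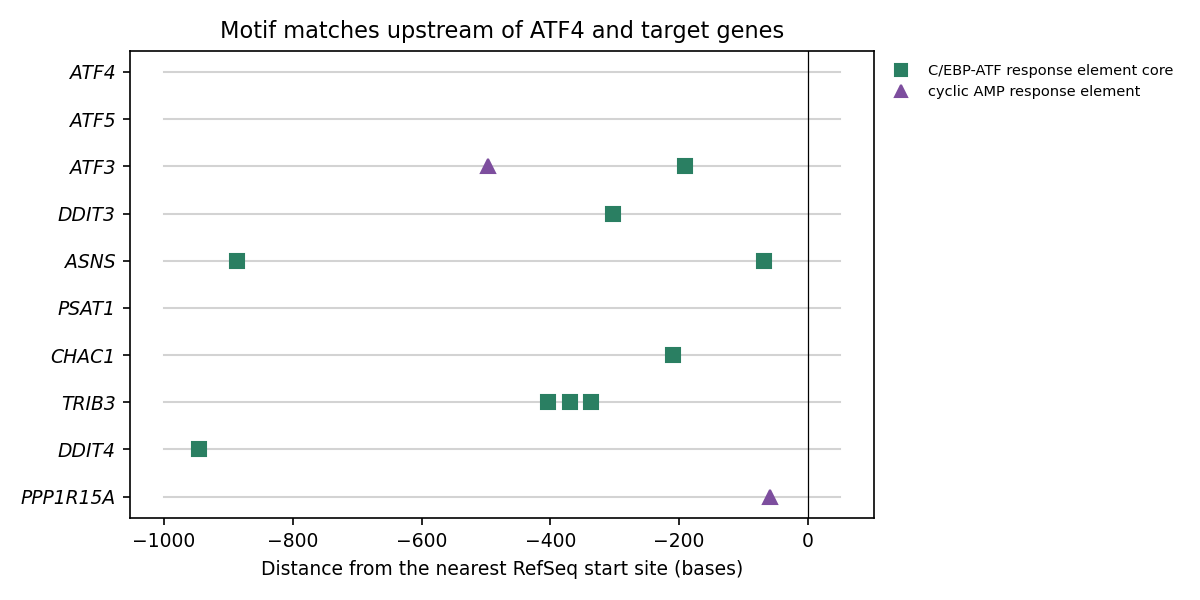
Matches to the C/EBP-ATF response element core (squares) and the cyclic AMP response element (triangles) for each of the 10 genes, plotted by distance in bases from the nearest RefSeq start site (0) over the 1000 bases upstream and the first 50 downstream. TRIB3 holds 3 squares spaced 33 bases apart, and ATF4, ATF5 and PSAT1 hold no match.

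Library totals ranged from 21896698 to 24473013 counts, and genes encoded by mitochondrial DNA took from 8.54% to 9.74% of a library. For RPS6KB1 the WT libraries held 831, 791 and 777 counts and the S6K1-/- libraries 464, 464 and 438, so that every S6K1-/- library lay below every WT library. Its log2 fold change was -0.75 (SE, the standard error, 0.057, adjusted p = 2.52e-07, edgeR quasi-likelihood test). The pluripotency markers, such as POU5F1, NANOG and SOX2, were all expressed, and 10 of 10 were tested. Their summed level was 6204 to 6341 CPM (counts scaled to a common library size) in WT and 5847 to 5870 CPM in S6K1-/- libraries, and DNMT3B was the only member of that list past an adjusted p of 0.001, with a log2 fold change of -0.35. At 0.05, 3 of the 10 were lower (DNMT3B, SALL4 and TDGF1) and 1 was higher (ZFP42), where 8.31% and 5.47% of all genes were called, and the S6K1-/- libraries lay below all WT libraries for 5 of the 10, against 16.7% of all genes. Of 14 markers of differentiated cells, 7 passed the filter and 4 had 3 counts or fewer in every library, and the summed level of the tested ones was 26.1 to 31.2 CPM in WT and 27.3 to 28.8 CPM in S6K1-/- libraries. PAX6, a neuroectoderm marker, was the only one of them past 0.001, with a log2 fold change of 0.76, while at 0.05 there were 2 lower and 3 higher of the 7, against 8.31% and 5.47% of all genes. The lower ones were FOXA2, an endoderm marker, at -0.88 (adjusted p = 0.00108) and KRT7, an epithelial and trophoblast marker, at -0.82 (adjusted p = 0.00103). SOX1, a neural marker, was at 1.29 (adjusted p = 0.0174) with 6 to 17 counts in a library, and MIXL1, a mesendoderm marker, at 0.24 (adjusted p = 0.0449). The part of these cell states in the values below was not tested.

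The comparison asked whether ATF4 and its target genes differed between S6K1-/- and WT hESCs. None of the 10 genes passed the threshold used in the study, an adjusted p under 0.001 (edgeR quasi-likelihood test, Benjamini-Hochberg adjustment over all genes tested), whereas 3.96% of all genes tested did, 2.54% lower and 1.42% higher. DESeq2's Wald test also called none of the 10 at that threshold. At an unadjusted p under 0.05 there were 2 of the 10 with either tool, where edgeR counted 26.4% of all genes tested. At an adjusted p under 0.05, TRIB3 was lower and ASNS was higher, where 8.31% of all genes were lower and 5.47% were higher, so that the share of the 10 called was close to that of all genes. DESeq2's Wald test called TRIB3 alone at that level. The median log2 fold change of the 10 genes was -0.025, against -0.0024 over all genes tested, with 6 genes below 0 and 4 above. For 8 of the 10, the change was under 0.2 on the log2 scale in either direction, as it was for 68.9% of all genes. In bulk RNA, fewer cells that express a gene and less RNA per cell cannot be told apart.

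**Figure D2:**
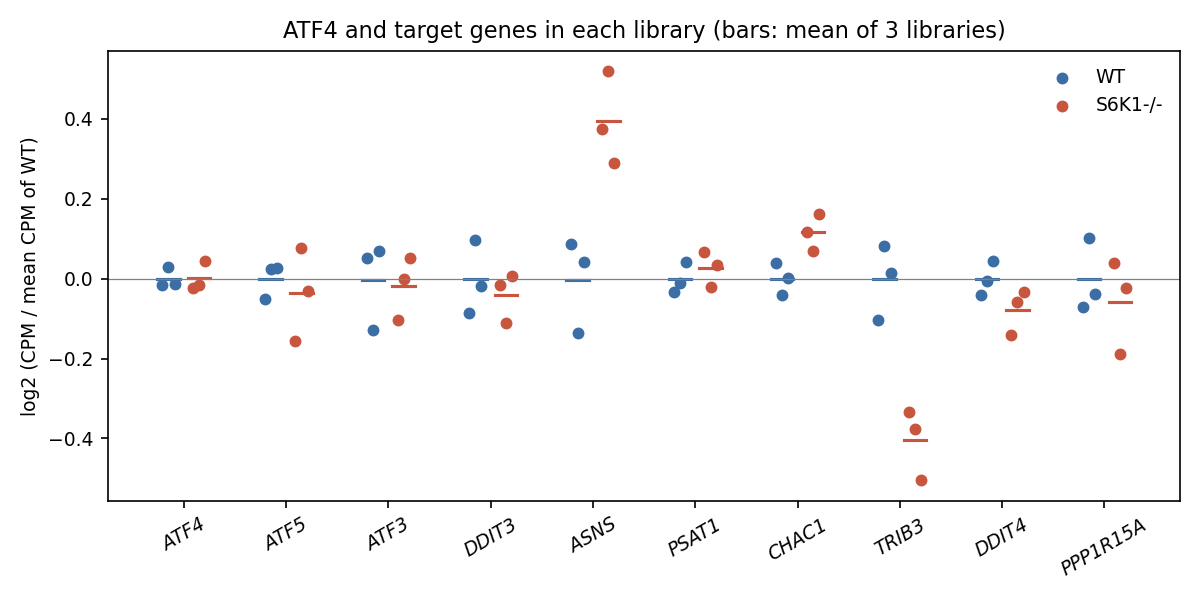
Level of each of the 10 genes in each library as the log2 ratio of its CPM to the mean CPM of the WT libraries (WT blue, S6K1-/- red, 3 points each, bars at the mean). The groups are separate for ASNS, CHAC1 and TRIB3, and the points of the other 7 genes overlap.

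ATF4, the transcription factor at the head of the response, lies on the plus strand of chromosome 22 from 39519695 to 39522683 (GRCh38). It had 11463, 11940 and 10950 counts in WT libraries and 10998, 11268 and 10684 counts in the S6K1-/- libraries. Its level was 476 ± 8.41 CPM in WT and 477 ± 12.4 CPM in S6K1-/- hESCs (SD, n = 3 each). The highest and the lowest library were both of the S6K1-/- group, so the groups overlapped throughout. The log2 fold change was 0.0018 (SE 0.040, adjusted p = 0.983, edgeR quasi-likelihood test), with a 95% interval from -0.083 to 0.086. A change of ATF4 mRNA below -5.56% or above 6.16% thus lay outside the interval. This was the narrowest interval of the 10 genes. Reads can be split between ATF4 and its processed copies, and 4 ATF4 pseudogenes together had 249 counts over all libraries. ATF4P3, with 31 to 44 counts in a library, held most of them and came to 0.339% of the counts of ATF4.

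ATF5 is the nearest relative of ATF4 and is likewise controlled through upstream open reading frames. It had 402, 428 and 405 counts in WT and 361, 432 and 365 counts in S6K1-/- libraries. The S6K1-/- libraries held both the lowest and the highest level, and the log2 fold change was -0.033 (SE 0.072, adjusted p = 0.826, edgeR quasi-likelihood test, 95% interval from -0.19 to 0.12). On GENCODE 44, 19.5% of the exonic length of ATF5 is shared with genes on the opposite strand, chiefly NUP62, and the strand setting of the counting is not given in the sources used here.
ATF3, a repressor of the same family that is induced by ATF4 and by many acute stresses, had 444, 396 and 429 counts in WT and 385, 421 and 397 counts in S6K1-/- libraries. Its groups overlapped, and its log2 fold change of -0.016 (SE 0.073, adjusted p = 0.920) had a 95% interval from -0.17 to 0.14. Its sign was not stable, as it was positive when WT replicate 1, WT replicate 3 or S6K1-/- replicate 1 was left out.
DDIT3 encodes CHOP, the factor through which a prolonged response turns towards cell death. It had 322, 369 and 322 counts in WT and 326, 311 and 307 counts in S6K1-/- libraries. The groups overlapped, with a log2 fold change of -0.040 (SE 0.074, adjusted p = 0.790) and a 95% interval from -0.20 to 0.12. Of its exonic length, 31.6% lies opposite exons of MARS1 and MBD6, and 8.03% is shared with ENSG00000285133, a protein-coding gene on the same strand. In all, 39.6% of its exonic and 33.5% of its coding bases are shared, so a part of its reads is uncertain. For these 3 transcription factors the difference was smaller than the spread between libraries.

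Of the genes for amino acid synthesis, ASNS, which encodes the enzyme that makes asparagine and is a standard reporter of ATF4 activity, had higher values in S6K1-/- hESCs. It had 134, 116 and 124 counts in WT libraries and 158, 178 and 138 counts in the S6K1-/- libraries. The level was 5.19 ± 0.414 CPM in WT and 6.83 ± 0.555 CPM in S6K1-/- hESCs (SD, n = 3 each), and the groups did not overlap. The log2 fold change was 0.40 (SE 0.11, adjusted p = 0.0210, edgeR quasi-likelihood test), with a 95% interval from 0.17 to 0.63, or from 12.6% to 54.7%. It was past 0.05 but not past 0.001, and the adjusted p was 0.0770 with DESeq2's Wald test. Without WT replicate 2 the adjusted p was 0.0747, and without S6K1-/- replicates 1 and 2 it was 0.0529 and 0.0873.
The count of ASNS was also the lowest of the 10 genes and may cover the gene only in part. ASNS lies on the minus strand of chromosome 7 from 97851677 to 97872542 (GRCh38). Its exons are shared over 49.3% of their length with ENSG00000284707, a long noncoding RNA on the same strand. Of the coding bases of ASNS, 96.1% are shared in this way. How reads in shared exons were assigned by the authors is not given in the sources used here, so the values are uncertain as a measure of ASNS mRNA. The unshared exonic bases number 2481.
PSAT1, which encodes an enzyme of serine synthesis, had 8124, 8325 and 8163 counts in WT and 8398, 8054 and 7610 counts in S6K1-/- libraries. Its level of 341 ± 9.14 CPM in WT and 348 ± 10.7 CPM in S6K1-/- hESCs (SD, n = 3 each) gave a log2 fold change of 0.028 (SE 0.041, adjusted p = 0.727, edgeR quasi-likelihood test). The groups overlapped, and the 95% interval ran from -4.02% to 8.28%. The intervals of ASNS and PSAT1, from 0.17 to 0.63 and from -0.059 to 0.11 on the log2 scale, did not overlap, although the difference between the changes of these genes was not itself tested.

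CHAC1 encodes an enzyme that degrades glutathione and is among the genes most tightly tied to ATF4 and CHOP. It had 748, 715 and 695 counts in WT and 762, 751 and 729 counts in S6K1-/- libraries. After scaling, the WT libraries lay at 30.7, 29.1 and 29.9 CPM and the S6K1-/- libraries at 32.5, 31.4 and 33.5 CPM, so the groups did not overlap. The log2 fold change was 0.12 (SE 0.055, adjusted p = 0.190, edgeR quasi-likelihood test) with a 95% interval from -3.0e-05 to 0.23, and the difference did not pass the test at either threshold. Groups that did not overlap were found for 3 of the 10 genes and 30.7% of all genes tested. The S6K1-/- group was the higher one for 2 of the 10 and 14% of all genes, and the lower one for 1 of the 10 and 16.7% of all genes.

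TRIB3, a pseudokinase that binds ATF4 and CHOP and dampens their activity as well as AKT signalling, had 263, 302 and 272 counts in WT libraries and 216, 214 and 178 counts in S6K1-/- libraries. Its level was 11.6 ± 0.747 CPM in WT and 8.77 ± 0.531 CPM in S6K1-/- hESCs (SD, n = 3 each), and every S6K1-/- library lay below every WT library. The log2 fold change was -0.40 (SE 0.085, adjusted p = 0.00478, edgeR quasi-likelihood test), with a 95% interval from -33.2% to -14.1%. This was the smallest adjusted p of the 10 genes, at place 1169 among all genes tested. Under the 12 alternatives the log2 fold change stayed between -0.44 and -0.35 and the adjusted p between 5.4e-04 and 0.0304. The adjusted p was under 0.001 only without the filter on low counts, although the SE was larger in that fit, at 0.094. TRIB3 lies on the plus strand of chromosome 20 from 362835 to 397559, and no other gene shares its exons on GENCODE 44.
PPP1R15A encodes GADD34, a regulatory subunit of the phosphatase that removes the phosphate from eIF2 and so ends the response. It had 417, 475 and 407 counts in WT and 434, 378 and 385 counts in S6K1-/- libraries. The groups overlapped, with a log2 fold change of -0.056 (SE 0.076, adjusted p = 0.698) and a 95% interval from -14.0% to 7.61%.
DDIT4 encodes REDD1, an inhibitor of mTORC1 that is induced by ATF4, by low oxygen and by glucocorticoids. It had 917, 948 and 928 counts in WT and 824, 890 and 824 counts in S6K1-/- libraries. Its log2 fold change was -0.077 (SE 0.052, adjusted p = 0.383), the groups overlapped at their edges, and the 95% interval ran from -12.3% to 2.39%. The sign was negative under all 12 alternatives.

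**Figure D3:**
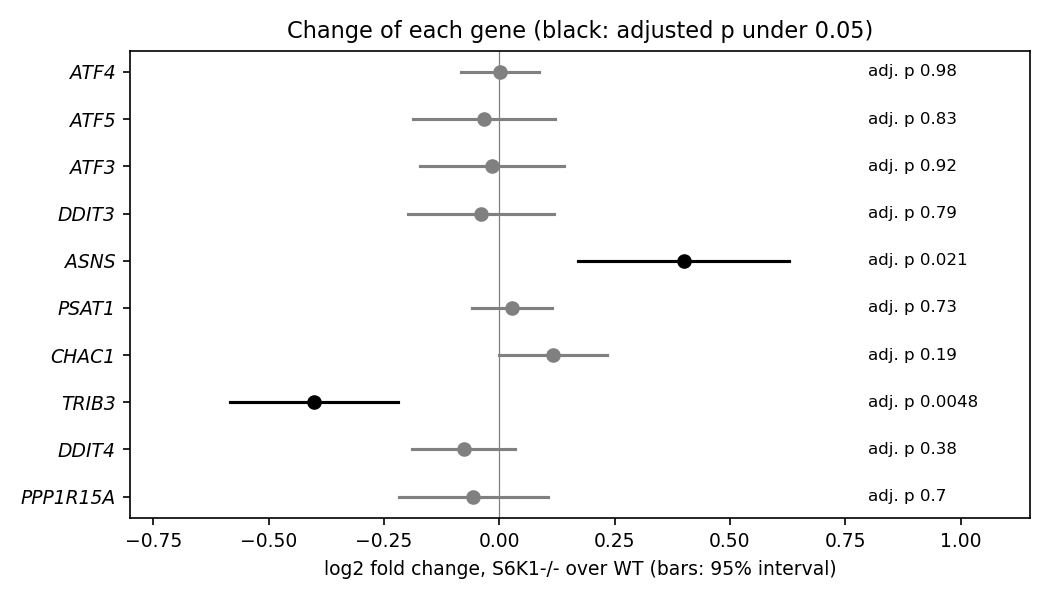
Log2 fold change of each of the 10 genes in S6K1-/- over WT hESCs (points) with its 95% interval (bars) and its adjusted p, edgeR quasi-likelihood test, in black where under 0.05. TRIB3 lies at -0.40 and ASNS at 0.40, and the intervals of the other 8 genes include 0.

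Per length of exon, ATF4 was the most abundant of the 10 genes at 182 ± 3.22 CPM per kb in WT hESCs, followed by PSAT1 at 155 ± 4.14 CPM per kb (SD, n = 3 each). Well below these lay DDIT4 at 18.3 ± 0.543, CHAC1 at 14.6 CPM per kb and DDIT3 at 10.7 ± 0.692 CPM per kb. ATF5 followed at 5.92 ± 0.182, PPP1R15A at 5.24 ± 0.341, ATF3 at 4.40 ± 0.325, TRIB3 at 3.52 ± 0.227 and ASNS at 1.06 ± 0.0846 CPM per kb. The order was the same in S6K1-/- hESCs. Neighbours in this order did not overlap between libraries of a group, except ATF5 and PPP1R15A in S6K1-/- hESCs, although differences between genes also depend on how exons were counted. The level of ASNS is divided by its whole exonic length, shared parts included, and those of genes with several start sites depend on which exons the annotation holds.

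**Figure D4:**
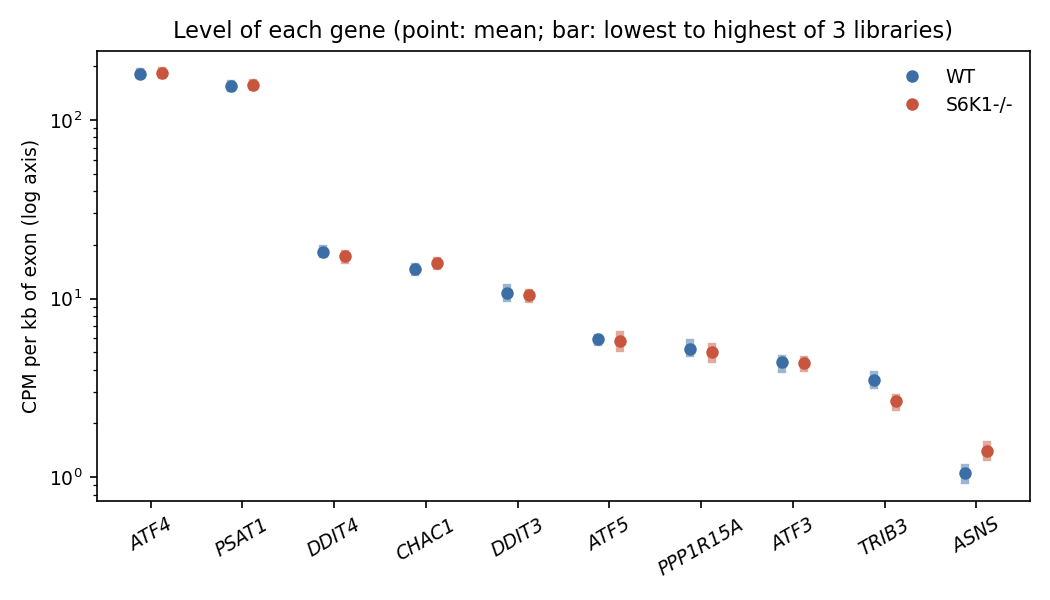
Level of each of the 10 genes in CPM per kb of exon (log axis) in WT (blue) and S6K1-/- (red) hESCs, with the mean of 3 libraries as a point and the lowest to highest library as a bar. ATF4 and PSAT1 lie at 155 to 182 CPM per kb, and ASNS lies lowest at 1.06 in WT and 1.40 in S6K1-/- hESCs.

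By the root mean square difference of the centred log2 CPM over the 6 libraries, the profiles most like that of ATF4 among 10483 other genes at 10 CPM or more on average were FAM171A1 (0.0073), NANP (0.0089) and PPP1CA (0.0094). These are likewise flat across the groups, with log2 fold changes of -0.0061, -0.0080 and 0.0024. For a flat gene such as ATF4 the measure selects flat profiles, so it shows no relation between these genes and ATF4.

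The wider pathway was described with 7 lists of 98 genes, 97 of which were tested. Past the threshold of 0.001, 3 genes were lower in S6K1-/- hESCs and none was higher (edgeR quasi-likelihood test), where 2.54% and 1.42% of all genes tested were called. By the Wald test of DESeq2, 3 were lower and 2 were higher, the latter EIF2S3 and SLC7A5, where that test called 505 lower and 339 higher over all genes. At an unadjusted p under 0.05, 12 of the 97 were lower and 15 were higher, where 14.5% of all genes tested were lower and 11.8% were higher. At an adjusted p under 0.05, 5 of the 97 were lower and 6 were higher, where 8.31% and 5.47% of all genes were called. The median log2 fold change was 0.0052, with 44 genes below 0 and 53 above, and for 83 of the 97 the log2 fold change was under 0.2 in either direction, as for 68.9% of all genes. The median of all genes was -0.0024.

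**Figure D5:**
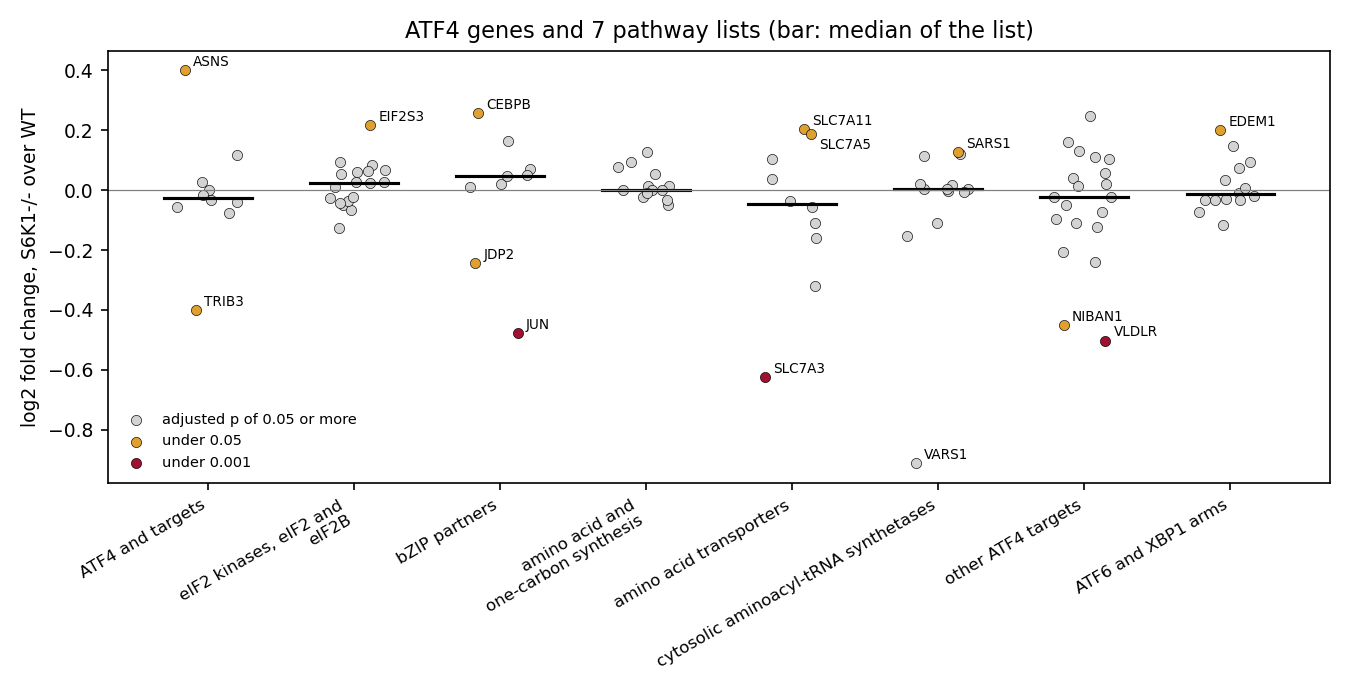
Log2 fold change in S6K1-/- over WT hESCs of the 10 ATF4 genes and of the genes of 7 pathway lists (points, coloured by adjusted p, edgeR quasi-likelihood test), with the median of each list as a bar. The medians lie near 0, and JUN, SLC7A3 and VLDLR are the genes past 0.001, all lower.

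Upstream of ATF4, none of 18 genes for the eIF2 kinases, eIF2, its exchange factor eIF2B and their regulators passed 0.001 (median log2 fold change 0.025), and at an unadjusted p under 0.05 there was 1 of the 18 in each direction, where 14.5% of all genes were lower and 11.8% higher. EIF2S3, the gamma subunit of eIF2, came nearest, with 15142, 15565 and 14845 counts in WT and 17325, 17359 and 16135 counts in S6K1-/- libraries. Its groups did not overlap, with a log2 fold change of 0.22 (SE 0.039, adjusted p = 0.00116, edgeR quasi-likelihood test), and it was past the threshold with DESeq2's size factors, with DESeq2's Wald test and without the filter on low counts. EIF2S2, the beta subunit, had a log2 fold change of -0.13 (adjusted p = 0.0626). The kinase genes EIF2AK3, which encodes PERK, and EIF2AK4, which encodes GCN2, had log2 fold changes of -0.049 and 0.083 with overlapping groups, and were named for their roles after their values were seen.

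Among 9 genes for bZIP factors that pair with ATF4 or bind related sites (median log2 fold change 0.047), 2 were lower and 2 were higher at an unadjusted p under 0.05 (14.5% and 11.8% of all genes). JUN, a subunit of AP-1, was the gene of this list that fell at 0.001. It had 700, 656 and 615 counts in WT and 452, 494 and 413 counts in S6K1-/- libraries, and every S6K1-/- library lay below every WT library. The log2 fold change was -0.48 (SE 0.063, adjusted p = 8.82e-05, edgeR quasi-likelihood test), and without S6K1-/- replicate 3 the adjusted p was 0.00133. CEBPB, a partner of ATF4 on the C/EBP-ATF response element, had a log2 fold change of 0.26 (adjusted p = 0.0212), and its groups did not overlap. CEBPG, the partner in the basal amino acid programme, was added after its value was seen and had a log2 fold change of 0.070 (adjusted p = 0.378).

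None of 13 further genes of amino acid and folate-linked synthesis passed either threshold, and their log2 fold changes spanned only -0.050 to 0.13 with a median of 0.0021, while 1 of the 13 was higher at an unadjusted p under 0.05 (11.8% of all genes). The nearest were PYCR1, an enzyme of proline synthesis, with a log2 fold change of 0.094 (adjusted p = 0.136), and SHMT2, the mitochondrial serine hydroxymethyltransferase, with 0.078 (adjusted p = 0.197). This was the narrowest span of the 7 lists.

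Of 10 amino acid transporter genes, 1 fell and none rose at 0.001 (2.54% and 1.42% of all genes), with a median log2 fold change of -0.047. At an unadjusted p under 0.05, 3 of the 10 were lower and 3 were higher (14.5% and 11.8% of all genes). SLC7A3, a transporter of arginine and lysine that is abundant in pluripotent cells, had 4034, 3810 and 3652 counts in WT and 2387, 2496 and 2273 counts in S6K1-/- libraries. The level was 159 ± 5.66 CPM in WT and 103 ± 1.55 CPM in S6K1-/- hESCs (SD, n = 3 each), with groups well apart. The log2 fold change was -0.62 (SE 0.041, adjusted p = 4.24e-08, edgeR quasi-likelihood test). SLC7A5, the large neutral amino acid transporter LAT1, had a log2 fold change of 0.19 (SE 0.039, adjusted p = 0.00423). SLC7A11, the cystine transporter, was named after its value was seen and had a log2 fold change of 0.21 (adjusted p = 0.0200). Of these, SLC7A5 passed 0.001 with DESeq2's Wald test and without the filter on low counts.

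None of 13 cytosolic aminoacyl-tRNA synthetase genes passed 0.001, and their median log2 fold change was 0.0034. SARS1 had a log2 fold change of 0.13 (adjusted p = 0.0433) and IARS1 of 0.12 (adjusted p = 0.0690), and of the 13 genes 1 was lower and 3 were higher at an unadjusted p under 0.05 (14.5% and 11.8% of all genes). VARS1, named after its values were seen, had 683, 76 and 556 counts in WT and 362, 53 and 255 counts in S6K1-/- libraries. Replicate 2 was far below the others in both groups, and the groups overlapped. Its fitted log2 fold change of -0.91 had an adjusted p of 0.323, and the call depended on the fit, since the adjusted p was 7.44e-25 without the filter on low counts and 2.91e-05 with the replicate number as a block. Single libraries also moved the log2 fold change, to -0.45 without WT replicate 1, -0.43 without S6K1-/- replicate 2, -1.42 without S6K1-/- replicate 1 and -1.42 without WT replicate 2, the last with an adjusted p of 0.0133.

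Of 20 other ATF4 target genes, 1 fell and none rose at 0.001 (2.54% and 1.42% of all genes), with a median log2 fold change of -0.023. At an unadjusted p under 0.05, 5 of the 20 were lower and 2 were higher (14.5% and 11.8% of all genes), and the S6K1-/- group lay wholly below WT for 4 of them (16.7% of all genes). VLDLR, a lipoprotein receptor induced in the response, had 1512, 1389 and 1410 counts in WT and 974, 994 and 949 counts in S6K1-/- libraries. All S6K1-/- libraries lay below all WT libraries, with a log2 fold change of -0.50 (SE 0.050, adjusted p = 4.65e-06, edgeR quasi-likelihood test). NIBAN1, a stress-induced regulator of translation and apoptosis, had a log2 fold change of -0.45 (SE 0.096, adjusted p = 0.00494), and its groups did not overlap. The secreted stress hormones of the list were added after their values were seen. GDF15 had a log2 fold change of -0.021 (adjusted p = 0.922), and FGF21 was near the limit of detection with 13 to 22 counts in a library.

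The other arms of the unfolded protein response, which run through ATF6 and XBP1, served as a contrast. None of the 14 genes tested passed 0.001, with a median log2 fold change of -0.014, and 3 of the 14 were higher and none was lower at an unadjusted p under 0.05 (11.8% and 14.5% of all genes). EDEM1, which helps to remove misfolded glycoproteins, had a log2 fold change of 0.20 (adjusted p = 0.0177), and SEL1L, of the same degradation pathway, of 0.15 (adjusted p = 0.0688). ATF6B was the gene of the lists that was not tested, with 39 counts in S6K1-/- replicate 1 and 1 to 3 counts in the other libraries. Across the lists, JDP2, a bZIP repressor that was named after its value was seen, completed the 5 lower genes at 0.05 with a log2 fold change of -0.24 (adjusted p = 0.0280).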

How the data were processed

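RNA from 3 WT and 3 S6K1-/- libraries of H7 hESCs was prepared with a stranded poly(A) kit. According to the methods and the submitters' processing notes, the authors trimmed paired reads with Trim Galore 0.6.5, aligned them to GRCh38 with Bowtie2 2.4.5, which does not align across splice junctions, and counted them per gene with featureCounts. The authors deposited these as raw read counts per symbol. The annotation release and strand setting are not given in the sources used here. A deposited table of the authors' own comparison made with DESeq2 1.37.4 holds fold changes and p-values and was not used.

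Genes were filtered with edgeR's filterByExpr, scaled by TMM and tested with edgeR's quasi-likelihood test (edgeR 4.0.16, R 4.3.3), on genotype alone, Benjamini-Hochberg adjustment over 19521 genes and the study's threshold of 0.001. CPM values use TMM library sizes. Standard errors were derived from the estimate and its F statistic. The 95% intervals use the test's degrees of freedom. The steps were tested on simulated data. Library totals were 21896698 to 24473013 counts. Libraries of a group differed by more than counting noise (ratio of chi-square to its degrees of freedom 2.23 to 4.51), and whether they come from separate cultures is not stated, so p-values measure the spread between these libraries, which may be technical.

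Exonic lengths and shared exons came from GENCODE 44, and start sites and promoter windows from RefSeq on GRCh38.p14, whose 35116 windows all matched the genome used. The 10 genes and the pathway lists were chosen with earlier results of these data known. The rule names the 10 genes, RPS6KB1, pseudogene copies, and the 3 profiles most like that of ATF4. Of each list it names up to 4 genes past the threshold or, where fewer than 2 pass, the 2 with the smallest adjusted p. Results were recomputed with size factors of DESeq2 in place of TMM, by the Wald test of DESeq2 1.42.0, unfiltered, with a minimum of 10 counts in each library, blocked on the replicate number, leaving out single libraries, at 0.05, and after adding pseudogene counts to the 10 genes.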

Additional observations from a re-analysis of the deposited data

How the results depend on the processing

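Under the alternatives, the number of the 10 genes past the threshold stayed at 0 in each direction, except that TRIB3 was lower (1 gene) without the filter on low counts, and that 1 was lower and 1 higher at an adjusted p under 0.05. Of the pathway genes, 5 were lower without the filter (VARS1 and NIBAN1 in addition) and 5 at 0.05. Those higher numbered 1 with DESeq2's size factors, 2 with DESeq2's Wald test, 3 without the filter (EIF2S3, SLC7A5 and ATF6B, whose counts come mostly from S6K1-/- replicate 1) and 6 at 0.05. Over all genes, 478 were lower and 285 higher with DESeq2's size factors, 505 and 339 with DESeq2's Wald test, 982 and 591 without the filter, and 1622 and 1067 at 0.05. Without the filter, VARS1 had an adjusted p of 7.44e-25 (edgeR quasi-likelihood test) although its WT counts ran from 76 to 683. The calls made without the filter are therefore uncertain. Leaving out 1 library gave from 313 to 445 lower and from 175 to 235 higher genes, the fewest without S6K1-/- replicate 3 and S6K1-/- replicate 1. The sign of the log2 fold change turned only when a library was left out, and only for genes that did not pass the test. It was -0.012 for ATF4 without S6K1-/- replicate 3, with a range from -0.012 to 0.017 over these fits, and 0.013 for DDIT3 without WT replicate 2 (range from -0.073 to 0.013). For ATF3 it was 0.019 and 0.025 without WT replicates 1 and 3, and 0.026 without S6K1-/- replicate 1 (range from -0.076 to 0.026). It was 0.026 for ATF5 without S6K1-/- replicate 1 (range from -0.091 to 0.026) and 0.0089 for PPP1R15A without S6K1-/- replicate 2 (range from -0.11 to 0.0089). The cause was not tested.

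With the replicate number as a block, no gene of the 10 passed 0.001, 4 pathway genes were lower (VARS1 in addition, with an adjusted p of 2.91e-05), and 423 lower and 241 higher genes were called over all. Same-numbered libraries deviated together with correlations of 0.196, 0.0992 and 0.0793, not all over 0.1. The main fit did not take the number as a pairing. Correlations between libraries of different numbers were not computed, so a factor shared by same-numbered libraries was not tested. TRIB3 and ASNS had 116 to 302 counts in a library, against at least 10684 for ATF4. The part of depth in their results was not tested.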
